A study of Oryza sativa with 40 samples.

Results

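The libraries described here are the 8 made from rice leaves 6 h and 2 h after a move to 40/35 °C (day/night), out of 40 libraries in the series. They were chosen by their labels, as hot treated for 6 h (4 libraries) against hot treated for 2 h (4 libraries), and all 19308 genes of the deposited table were compared. The plants were Oryza sativa cultivar IR64, the same genotype in every group, with no transgene or mutation named. They were grown in hydroponic tanks in a glasshouse at 30/25 °C. The move to 40/35 °C was made 3 h into the day, and the middle section of leaves that existed before the move was harvested. Both hot groups had thus already been moved to the heat, and they differ in time of day and in hours of heat together, which cannot be told apart within these 8 libraries. Leaves kept at 30/25 °C and harvested at the same hours (warm 6 h and warm 2 h, 4 libraries each) and leaves moved to 25/20 °C (cold 6 h and cold 2 h, 4 libraries each) are set beside the hot values for that reason. Of 12 tanks, 4 were at each temperature, but the labels do not tie a library to a tank, so p-values measure the spread between these libraries.

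Plant leaves time much of their gene activity with a circadian clock, a network of transcription factors that repress one another in turn through the day. In the morning, LHY-type MYB factors are high and hold back evening genes. Pseudo-response regulators (PRR) then follow in sequence and repress the morning factors, and an evening complex of LUX, ELF3 and ELF4 closes the cycle. In heat, leaves also make chaperones, proteins that help other proteins fold, under the control of heat stress transcription factors (HSF), a response known to be strongest in the first hours.

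Reads assigned to genes ran from 4614393 to 7401395 in the 8 hot libraries, and from 1830817 to 9628451 over all 40. Across genes, the mean correlation of a hot library with the others of its group was 0.950 to 0.964. Values are given as CPM, read counts scaled to library size, and 3 reads, taken as the floor for counting error only, came to 0.338 to 0.584 CPM in hot libraries. Coordinates are on build IRGSP-1.0, as deposited. CPM values below are 2 raised to the deposited log2 value, in replicate order 1 to 4, and changes are differences of log2 CPM (hot 6 h minus hot 2 h) ± SE of the fit, with n = 4 libraries a group. Sequencing lanes were uneven: hot 6 h leaves had 1 library in lane 2 and 3 in lane 3, and hot 2 h leaves had 2 in each. Of the 4821 genes called, 4816 had the same direction within lane 2 and all 4821 within lane 3. These genes were chosen by their values in the same libraries, so this agreement largely follows from the choice and is no test of lanes. With the lane 3 libraries alone (3 against 2) 2181 genes passed. Of the genes described for their own change below, GI, PRR59, PRR73, ELF3-1, SLAC1, HSP101, PP2C50, NIR, LOC_Os05g38530, LOC_Os04g52130, LOC_Os02g47020, LOC_Os01g51410, LOC_Os05g44210, LOC_Os01g67580, LOC_Os06g47550 and LOC_Os06g03930 kept their direction there and did not pass.

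Many leaf transcripts differed between 6 h and 2 h of heat, in both directions. In hot 6 h leaves 2086 genes were higher and 2735 were lower than in hot 2 h leaves, 4821 of 19308 in all (25.0% of genes tested, 10.8% higher and 14.2% lower, at a Benjamini-Hochberg adjusted p under 0.05). Of these, 1402 were higher and 1451 lower by at least 2-fold. The median change over all genes was -0.044, and the middle of the distribution lay between -1.56 and 1.57 at the 5th and 95th percentiles. Among lists of at least 10 measured genes, the share that rose was highest in the circadian clock (53.8%) and in pentatricopeptide repeat proteins (40.2%), and the share that fell was highest in aquaporins (45.5%) and in B-box and CCT domain regulators (36.1%). The 10.8% and 14.2% are the background for every list below in hot leaves. List counts in warm and cold leaves have a background of their own. Of the 19308 genes, 1745 were higher and 2032 lower at warm 6 h against warm 2 h. At cold 6 h against cold 2 h, 2506 were higher and 2704 lower.

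**Figure D1:**
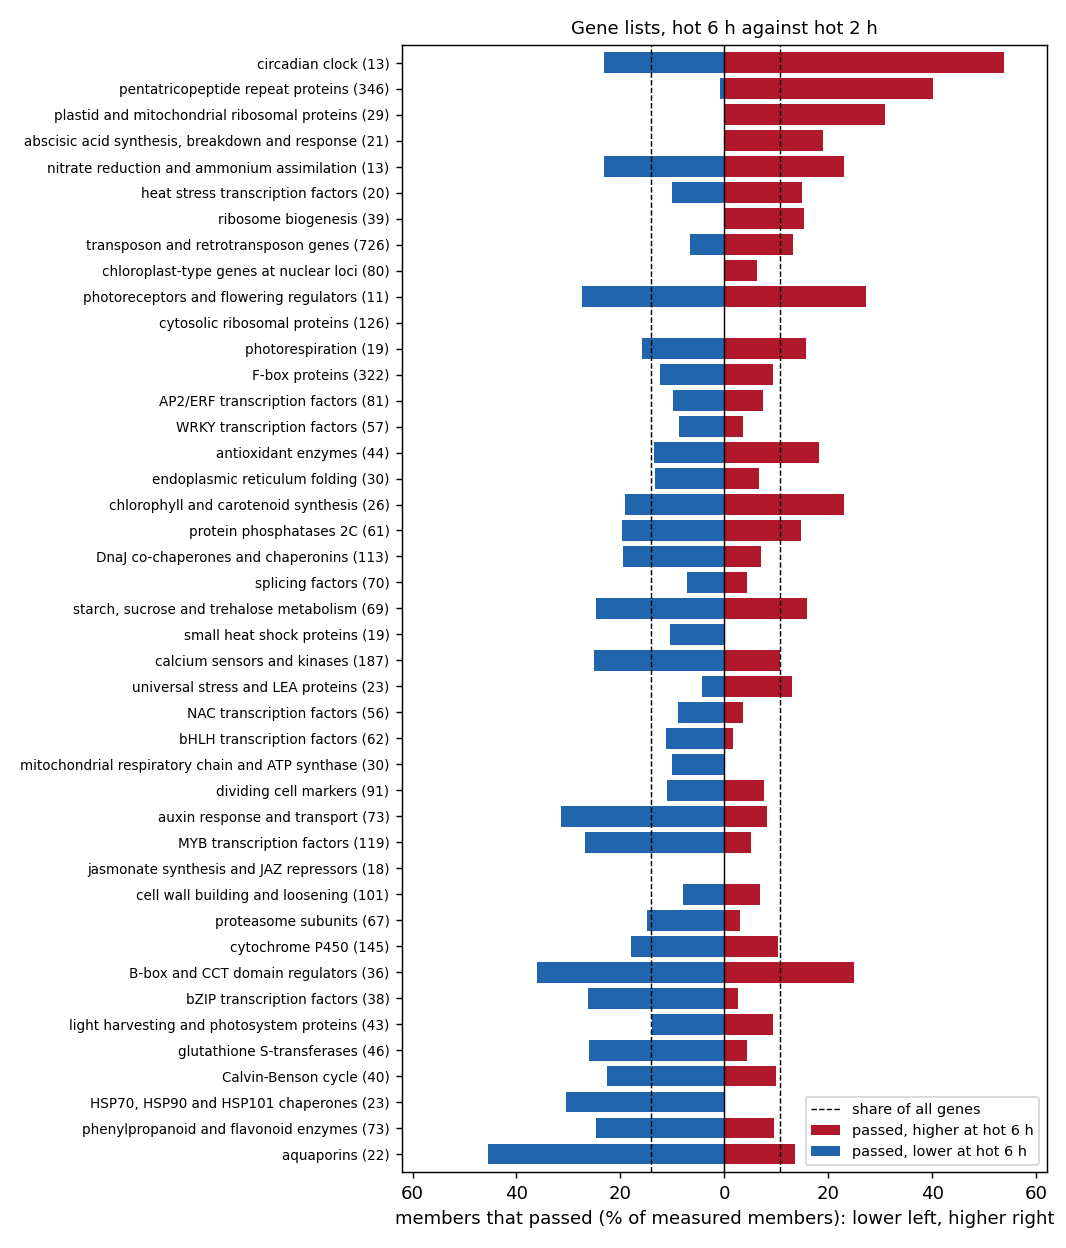
Share of measured members called higher (right, red) and lower (left, blue) at hot 6 h against hot 2 h, in percent, for the gene lists with at least 10 measured members (number in brackets), ordered by median change. Dashed lines mark the shares of all genes, 10.8% higher and 14.2% lower, and the circadian clock and pentatricopeptide repeat proteins lie farthest past the line on the right.

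Of 13 measured clock genes, 7 rose and 3 fell, and their median change was 1.01, against -0.044 for all genes. LUX (LOC_Os01g74020, chromosome 1, 42874207 to 42875515, minus strand), the DNA-binding member of the evening complex, had 59.3, 64.2, 134 and 92.2 CPM in hot 6 h leaves, against 0.61, 0.801, 0.0932 and 0.883 CPM in hot 2 h leaves. The 4 hot 2 h libraries held 13 of its reads in all, near the floor, and every hot 6 h library was far above them. Its change was 7.53 ± 0.62 (adjusted p = 1.18e-11), a size that depends on the offset added to low counts and was 5.83 on log2(CPM + 1). ELF3-2 (LOC_Os01g38530, chromosome 1, 21637031 to 21643111, minus strand), one of the ELF3 proteins that scaffold the same complex, had 43.8, 49.5, 64.3 and 52.9 CPM in hot 6 h leaves, against 3.92, 4.54, 4.2 and 5.23 CPM in hot 2 h leaves. The change was 3.55 ± 0.51 (adjusted p = 1.55e-06). FKF1 (LOC_Os11g34460, chromosome 11, 20182477 to 20187327, minus strand), a blue-light receptor with an F-box that marks repressors for breakdown in the afternoon, had 302, 337, 382 and 388 CPM in hot 6 h leaves, against 24.3, 26.6, 14.3 and 14.6 CPM in hot 2 h leaves. The change was 4.19 ± 0.66 (adjusted p = 8.15e-06). For both genes the groups were far apart, with no hot 2 h library near any hot 6 h library.

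Of 5 pseudo-response regulators, 3 rose and 1 fell. PRR1 (LOC_Os02g40510, chromosome 2, 24569294 to 24572560, plus strand), the rice counterpart of the Arabidopsis evening regulator TOC1, had 146, 128, 143 and 148 CPM in hot 6 h leaves, against 38.3, 35.9, 23 and 19.4 CPM in hot 2 h leaves. The change was 2.34 ± 0.58 (adjusted p = 0.00254). PRR95 (LOC_Os09g36220, chromosome 9, 20885172 to 20889843, minus strand) had 1303, 1188, 1338 and 1453 CPM in hot 6 h leaves, against 323, 420.5, 260.4 and 271 CPM in hot 2 h leaves. The change was 2.07 ± 0.33 (adjusted p = 9.04e-06). PRR59 (LOC_Os11g05930, chromosome 11, 2789002 to 2793735, plus strand) had 168, 176, 179.5 and 176 CPM in hot 6 h leaves, against 88.5, 74.5, 52.3 and 64.9 CPM in hot 2 h leaves. The change was 1.35 ± 0.4 (adjusted p = 0.0105). All 3 were higher in every hot 6 h library than in any hot 2 h library, as were 16.8% of all genes. PRR73 (LOC_Os03g17570, chromosome 3, 9759479 to 9768656, minus strand), whose Arabidopsis relative PRR7 acts earlier in the day, had 722, 748, 762 and 784 CPM in hot 6 h leaves, against 1258, 1028, 1165 and 1084 CPM in hot 2 h leaves. It fell, with a change of -0.58 ± 0.17 (adjusted p = 0.00929). PRR37 (LOC_Os07g49460) had 462, 507, 554 and 546 CPM in hot 6 h leaves, against 702, 646, 686 and 537 CPM in hot 2 h leaves. Its groups overlapped, and the change of -0.31 ± 0.19 (adjusted p = 0.236) did not pass.

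LHY (LOC_Os08g06110, chromosome 8, 3365730 to 3373434, plus strand), the morning MYB repressor, went the other way from the evening genes. It had 39.3, 41.3, 40.1 and 47.8 CPM in hot 6 h leaves, against 350.5, 506, 430.5 and 329.9 CPM in hot 2 h leaves. Every hot 6 h library lay far below every hot 2 h library, and the change was -3.25 ± 0.22 (adjusted p = 1.65e-13). GI (LOC_Os01g08700, chromosome 1, 4329152 to 4338485, minus strand), the GIGANTEA protein that partners FKF1, had 2049, 2240.3, 2188 and 2416 CPM in hot 6 h leaves, against 803, 1278, 1278 and 1132 CPM in hot 2 h leaves. The change was 1.01 ± 0.26 (adjusted p = 0.00343). ELF3-1 (LOC_Os06g05060, chromosome 6, 2234119 to 2239162, minus strand), the other ELF3 gene, had 86.2, 92, 87.3 and 84.2 CPM in hot 6 h leaves, against 120.4, 118, 126 and 114 CPM in hot 2 h leaves. It fell by a small amount, with a change of -0.45 ± 0.14 (adjusted p = 0.018). ZTL1 (LOC_Os06g47890) and ZTL2 (LOC_Os02g05700), relatives of FKF1, had changes of 0.21 ± 0.13 (adjusted p = 0.265) and -0.0053 ± 0.15 (adjusted p = 0.986).

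**Figure D2:**
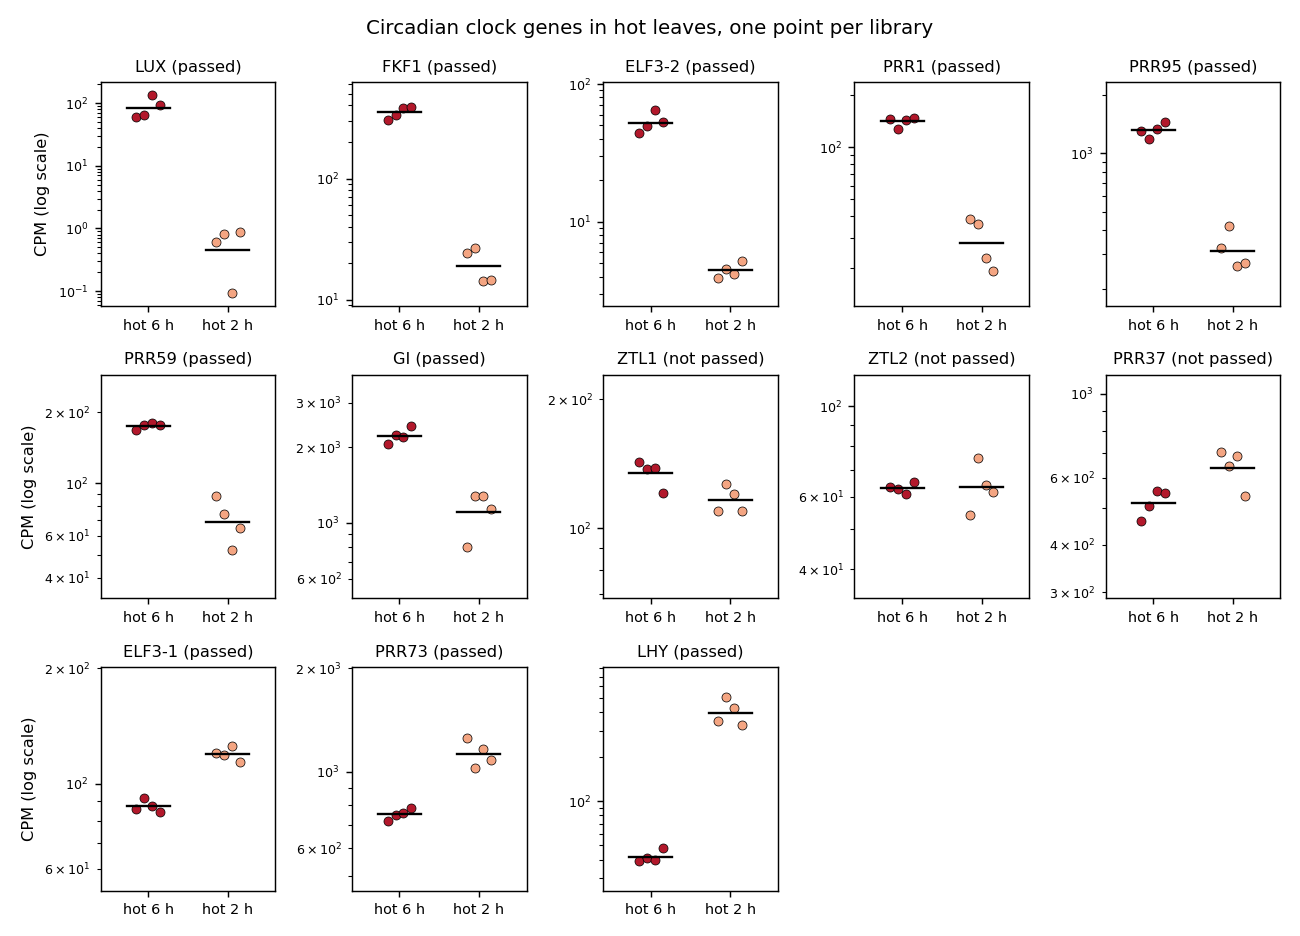
CPM (log scale) of the 13 clock genes in each hot 6 h library (dark, left) and each hot 2 h library (light, right), ordered from the largest rise to the largest fall, with bars at the geometric means. LUX, FKF1 and ELF3-2 are higher in every hot 6 h library than in any hot 2 h library, LHY stands apart in the other direction, and ZTL1, ZTL2 and PRR37 did not pass.

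In the same hours, fewer clock genes passed in warm and cold leaves: 3 clock genes rose and 2 fell at warm 6 h against warm 2 h (19.6% of all genes were called in warm leaves), and 3 rose and 2 fell in cold leaves (27% of all genes called). LUX had a change of 7.53 in hot leaves, 6.26 in warm leaves and 5.76 in cold leaves. FKF1 had changes of 4.19, 2.05 and 1.12, PRR1 of 2.34, 0.96 and 0.55, and PRR95 of 2.07, 0.61 and 0.26, in hot, warm and cold leaves in that order. None of the 13 clock genes passed the test of the difference between the hot and the warm change (lowest adjusted p = 0.346, PRR95). LHY changed by -3.25 in hot leaves and -1.8 in cold leaves, and this difference, -1.45 ± 0.32 (adjusted p = 0.0425), passed with all libraries and did not pass without 15 of the 16 hot and cold libraries, each left out in turn (adjusted p up to 0.0975).

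Genes of light perception and flowering moved beside the clock. Of 36 B-box and CCT domain regulators, zinc finger proteins that include flowering and light response factors, 9 rose and 13 fell, and their median change was -0.33. This was not particular to hot leaves: 11 rose and 16 fell in warm leaves (median -0.607), and 11 rose and 16 fell in cold leaves (median -0.669). HD1 (LOC_Os06g16370), the rice counterpart of the flowering regulator CONSTANS, had 2.88, 2.3, 2.3 and 2.63 CPM in hot 6 h leaves, against 0.0872, 0.623, 0.0932 and 0.34 CPM in hot 2 h leaves. Hot 2 h replicates 1 and 3 held no reads of HD1, and its other hot 2 h values lay near the 3-read floor. Its change of 3.63 ± 0.74 (adjusted p = 0.0003) came to 1.54 on log2(CPM + 1). The B-box genes LOC_Os09g33550 and LOC_Os09g06464 moved in opposite directions, with changes of 3.64 ± 0.51 (adjusted p = 1.03e-06) and -2.92 ± 0.29 (adjusted p = 1.11e-09). Of 11 photoreceptors and flowering regulators 3 rose and 3 fell. PHYB (LOC_Os03g19590), a red-light receptor, averaged 215 CPM in hot 6 h leaves and 98.8 CPM in hot 2 h leaves (geometric means), a change of 1.12 ± 0.25 (adjusted p = 0.000973), and PHYC (LOC_Os03g54084) changed by 0.91 ± 0.23 (adjusted p = 0.00293). PIL13 (LOC_Os03g56950), a phytochrome-interacting bHLH factor, had 53.8, 74.1, 37.7 and 69 CPM in hot 6 h leaves, against 216, 132, 207 and 206 CPM in hot 2 h leaves. It fell, with a change of -1.72 ± 0.32 (adjusted p = 9.8e-05) and no overlap between the groups.

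The largest rises outside the clock, by the stated rule, came from genes of varied annotation. A DnaJ protein (LOC_Os04g57880, chromosome 4, 34489919 to 34492725, plus strand), a co-chaperone that acts with HSP70, had 224, 179, 249 and 266 CPM in hot 6 h leaves, against 0.784, 2.58, 1.96 and 1.56 CPM in hot 2 h leaves. The change was 7.17 ± 0.71 (adjusted p = 7.58e-10). A pumilio-family RNA-binding protein (LOC_Os12g31000, chromosome 12, 18618482 to 18621147, plus strand) had 291, 278, 428 and 411 CPM in hot 6 h leaves, against 3.92, 3.12, 1.4 and 1.97 CPM in hot 2 h leaves. The change was 7.16 ± 0.55 (adjusted p = 2.1e-12). A gene annotated as the DNA-binding protein DSP1 (LOC_Os01g50622, chromosome 1, 29072766 to 29076344, minus strand) had 472, 477, 599 and 626 CPM in hot 6 h leaves, against 7.41, 4.01, 4.94 and 8.09 CPM in hot 2 h leaves. The change was 6.52 ± 0.39 (adjusted p = 5.44e-15). The rule took only genes whose groups did not overlap, and in all 3 the groups were separated by more than an order of magnitude. A peptide transporter (LOC_Os01g65130) changed by 6.62 ± 0.49 (adjusted p = 1.05e-12) and a 2Fe-2S iron-sulfur protein (LOC_Os07g30670) by 6.2 ± 0.74 (adjusted p = 5.1e-08). The single largest rise, chosen after its values were seen, was an expressed protein without further annotation (LOC_Os03g08580), with 109, 117, 146 and 138 CPM in hot 6 h leaves, against 0.261, 0.267, 0.28 and 0.0679 CPM in hot 2 h leaves. Its hot 2 h libraries were all under the floor, so its change of 9.37 ± 0.65 (adjusted p = 1.64e-13) is no measure of size, and it was 6.82 on log2(CPM + 1).

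The largest falls included transporters of sugars and their phosphates. A SWEET-type (MtN3) sugar transporter (LOC_Os01g50460, chromosome 1, 28975563 to 28977354, plus strand) had 0.62, 0.827, 0.667 and 0.681 CPM in hot 6 h leaves, against 32, 46.9, 25.1 and 19.1 CPM in hot 2 h leaves. The change was -5.39 ± 0.32 (adjusted p = 5.44e-15). A triose phosphate/phosphate translocator (LOC_Os05g07870, chromosome 5, 4249996 to 4255036, plus strand), of the family that carries phosphorylated sugars across the plastid envelope, had 5.81, 4.32, 4.67 and 5.16 CPM in hot 6 h leaves, against 240.3, 229.8, 228 and 131 CPM in hot 2 h leaves. The change was -5.35 ± 0.25 (adjusted p = 1.32e-17). A protein kinase (LOC_Os07g44330, chromosome 7, 26481246 to 26485308, minus strand) had 8.4, 4.13, 12.1 and 4.77 CPM in hot 6 h leaves, against 344, 372, 289 and 223 CPM in hot 2 h leaves. The change was -5.49 ± 0.35 (adjusted p = 2.84e-14). The rule took only genes whose groups did not overlap, so the lack of overlap in these 3 follows from the choice. A ferric-chelate reductase (LOC_Os04g36720, chromosome 4, 22182599 to 22186943, plus strand), of the enzyme class that makes iron available for uptake, had 51.9, 49.7, 41.6 and 54 CPM in hot 6 h leaves, against 1134, 1163, 1069 and 1079 CPM in hot 2 h leaves. The change was -4.5 ± 0.24 (adjusted p = 4.04e-16), with libraries of each group close together. A carboxyvinyl-carboxyphosphonate phosphorylmutase (LOC_Os12g08760) and a terpene synthase (LOC_Os08g04500) changed by -4.62 ± 0.47 (adjusted p = 1.61e-09) and -4.53 ± 0.59 (adjusted p = 2.47e-07). The changes of these genes in warm leaves had the same sign, from -4.67 for the sugar transporter LOC_Os01g50460 to -3.0 for the terpene synthase.

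Some main transcripts of carbon fixation were lower at hot 6 h. RCA (LOC_Os11g47970, chromosome 11, 28934294 to 28936340, minus strand), the Rubisco activase that keeps the carbon-fixing enzyme open and is heat-sensitive, had 3951, 4670.4, 2996 and 5137 CPM in hot 6 h leaves, against 26622, 24332, 18994 and 14200.5 CPM in hot 2 h leaves. The groups were far apart, and the change was -2.32 ± 0.31 (adjusted p = 3.67e-07). Phosphoribulokinase (LOC_Os02g47020), which regenerates the acceptor of carbon dioxide, averaged 1112 CPM in hot 6 h leaves and 2485 CPM in hot 2 h leaves, a change of -1.16 ± 0.34 (adjusted p = 0.0093). Ribose-5-phosphate isomerase (LOC_Os04g24140), of the same cycle, rose with a change of 1.72 ± 0.39 (adjusted p = 0.00104). Over the 40 Calvin-Benson cycle genes, 4 rose and 9 fell, with a median of -0.375, and the rises were 2 without hot 2 h replicate 1 or hot 6 h replicate 2. Their median was -0.44 in warm leaves, where 2 rose and 8 fell. In cold leaves it was -0.59, and 3 rose and 13 fell. Of 43 light harvesting and photosystem proteins, 4 rose (9.3%) and 6 fell (14%, or 10 genes without hot 2 h replicate 4), near the background of all genes. Their median of -0.35 lay between -0.51 and 0.019 over the other settings tried. A chlorophyll a-b binding protein (LOC_Os09g26810) and an oxygen evolving enhancer protein (LOC_Os02g36850) were among the risers, with changes of 3.38 ± 0.6 (adjusted p = 4.6e-05) and 4.61 ± 0.47 (adjusted p = 1.35e-09). In warm leaves 3 genes of this list rose and 10 fell, with a median of -0.82. In cold leaves 4 rose and 18 fell, with a median of -0.95.

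Pigment synthesis moved in both directions, with 6 of 26 genes of chlorophyll and carotenoid synthesis higher and 5 lower. Phytoene synthase (LOC_Os12g43130, chromosome 12, 26780487 to 26783598, minus strand), the entry step of carotenoid synthesis, had 9.75, 9.46, 12.5 and 6.91 CPM in hot 6 h leaves, against 211, 208, 130.1 and 69.8 CPM in hot 2 h leaves. The change was -3.9 ± 0.36 (adjusted p = 1.74e-10). Chlorophyllide a oxygenase (LOC_Os10g41780), which makes chlorophyll b, averaged 416 CPM in hot 6 h leaves and 1258 CPM in hot 2 h leaves, a change of -1.6 ± 0.22 (adjusted p = 6.31e-07). Coproporphyrinogen III oxidase (LOC_Os04g52130), an earlier step towards chlorophyll and haem, rose with a change of 2.18 ± 0.39 (adjusted p = 5.06e-05). In photorespiration, the recycling path that heat is known to favour, 3 of 19 genes rose and 3 fell. Mitochondrial serine hydroxymethyltransferase (LOC_Os03g52840) had 1356, 1579, 1701 and 1628 CPM in hot 6 h leaves, against 4351, 4409, 4074 and 3062 CPM in hot 2 h leaves. Glycine dehydrogenase (LOC_Os01g51410) had 1819, 1457, 1341 and 1543 CPM in hot 6 h leaves, against 3772, 4510.0, 3419 and 2342 CPM in hot 2 h leaves. Both fell with no overlap between the groups, with changes of -1.33 ± 0.21 (adjusted p = 5.73e-06) and -1.16 ± 0.3 (adjusted p = 0.00327), whereas the small H protein of the same glycine-splitting complex (LOC_Os02g07410) rose with a change of 1.2 ± 0.33 (adjusted p = 0.00615). The mesophyll markers, RCA and 3 Rubisco small subunits, summed to 21706 to 27576 CPM in hot 6 h leaves, against 29221 to 60637 CPM in hot 2 h leaves, and RCA alone of the 4 passed. In these bulk samples, fewer cells of a type and less RNA per cell cannot be told apart.

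Starch and sucrose genes also went both ways: 11 of 69 rose and 17 fell. A sucrose-phosphate synthase (LOC_Os01g69030, chromosome 1, 40101404 to 40107186, minus strand), the committed enzyme of sucrose synthesis, had 27.2, 25.6, 23.5 and 23.5 CPM in hot 6 h leaves, against 229.9, 297, 206 and 158 CPM in hot 2 h leaves. The change was -3.12 ± 0.18 (adjusted p = 5.36e-15). A starch synthase (LOC_Os07g22930, chromosome 7, 12916277 to 12921186, minus strand), which lengthens starch chains, had 94.3, 107, 81.2 and 92.2 CPM in hot 6 h leaves, against 742, 983, 446 and 326 CPM in hot 2 h leaves. The change was -2.61 ± 0.32 (adjusted p = 8.02e-08). Both fell without overlap. A neutral/alkaline invertase (LOC_Os01g22900, chromosome 1, 12870228 to 12874264, plus strand), which splits sucrose, had 1348, 1487, 1366 and 1557 CPM in hot 6 h leaves, against 214, 139, 164 and 259 CPM in hot 2 h leaves. The change was 2.93 ± 0.68 (adjusted p = 0.00134). A branching enzyme (LOC_Os06g26234) averaged 187 CPM in hot 6 h leaves and 26.5 CPM in hot 2 h leaves, a change of 2.81 ± 0.33 (adjusted p = 2.34e-08). The starch synthase, the invertase and the branching enzyme were chosen after their values were seen. A beta-amylase (LOC_Os03g22790), of the enzymes that break starch down, had 0.733, 1.01, 0.222 and 0.292 CPM in hot 6 h leaves, against 3.75, 3.83, 4.2 and 13.4 CPM in hot 2 h leaves. The change was -3.51 ± 0.65 (adjusted p = 8.17e-05).

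Of 13 genes of nitrate reduction and ammonium assimilation, 3 rose and 3 fell. A chloroplast glutamate synthase (LOC_Os05g48200, chromosome 5, 27622654 to 27636451, plus strand), which builds glutamate from ammonium bound in glutamine, had 1204, 1527, 1530.3 and 1654 CPM in hot 6 h leaves, against 117, 95.2, 199 and 294 CPM in hot 2 h leaves. The change was 3.2 ± 0.53 (adjusted p = 1.64e-05). NIR (LOC_Os01g25484, chromosome 1, 14446910 to 14453474, plus strand) and another ferredoxin-nitrite reductase (LOC_Os02g52730, chromosome 2, 32254049 to 32257357, minus strand), which reduce nitrite to ammonium in the plastid, both rose. NIR had 372, 1105, 335 and 799 CPM in hot 6 h leaves, against 199, 201, 212 and 165 CPM in hot 2 h leaves. LOC_Os02g52730 had 28.4, 95.6, 33.6 and 83.4 CPM in hot 6 h leaves, against 19.6, 18.1, 16.9 and 13.9 CPM in hot 2 h leaves. In both, replicates 2 and 4 of the hot 6 h leaves were well above replicates 1 and 3, no group overlapped the other, and the changes were 1.58 ± 0.4 (adjusted p = 0.00319) and 1.63 ± 0.41 (adjusted p = 0.00311). A glutamine synthetase (LOC_Os03g12290) fell with a change of -1.63 ± 0.33 (adjusted p = 0.000245). How reads shared by the 2 nitrite reductase genes were counted is not given in the sources used here, so their split is uncertain.

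Aquaporins, channels that carry water and small solutes across membranes, had the highest share of falls among lists of at least 10 genes: 10 of 22 fell and 3 rose, and the median change was -0.84. LOC_Os02g44630 had 167, 176, 201 and 165 CPM in hot 6 h leaves, against 705, 734, 760.0 and 588 CPM in hot 2 h leaves. The change was -1.97 ± 0.22 (adjusted p = 1.26e-08), and LOC_Os07g26630 changed by -2.94 ± 0.65 (adjusted p = 0.000771). Among the risers, LOC_Os05g14240 had 415, 357, 454 and 475 CPM in hot 6 h leaves, against 22.6, 18.8, 16.3 and 19.5 CPM in hot 2 h leaves. The change was 4.46 ± 0.39 (adjusted p = 5.09e-11). LOC_Os09g36930 had 1038, 784, 1122 and 1105 CPM in hot 6 h leaves, against 384, 682, 244 and 185 CPM in hot 2 h leaves. The change was 1.6 ± 0.38 (adjusted p = 0.0015). In warm leaves 12 of the 22 fell and 1 rose, with a median of -1.23.

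Genes for handling organelle RNA rose more often than genes in general. Pentatricopeptide repeat (PPR) proteins bind, edit and splice transcripts of the chloroplast and the mitochondrion. Of 346 measured, 139 rose (40.2%, against 10.8% of all genes) and 3 fell (0.867%, against 14.2%). Their median change was 0.89, and 306 of the 346 had a change above 0. With the lane 3 libraries alone 65 rose. Their summed level was 8107.5 to 8274 CPM in hot 6 h leaves, against 4382 to 4796 CPM in hot 2 h leaves. The PPR gene with the largest change (LOC_Os03g63910, chromosome 3, 36107251 to 36110942, plus strand) had 226, 213, 185 and 206 CPM in hot 6 h leaves, against 11.2, 12.7, 6.62 and 11.6 CPM in hot 2 h leaves. The change was 4.34 ± 0.23 (adjusted p = 6.49e-16), and LOC_Os05g49920 followed with a change of 3.86 ± 0.63 (adjusted p = 1.45e-05). The 3 that fell, named after their values were seen, were LOC_Os04g49350 with a change of -3.15, LOC_Os11g29230 with -1.02 and LOC_Os12g18640 with -0.97. In warm leaves 96 PPR genes rose and 5 fell with a median of 0.79, and in cold leaves 142 rose and 5 fell with a median of 0.87.

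Organelle ribosomal proteins also had more risers than the background. Of 29 plastid and mitochondrial ribosomal proteins, 9 rose and none fell, with a median of 0.54 (10 rose and 0 fell at an unadjusted p under 0.05, and 12 and 0 with voom weights), and their summed level was 1457.5 to 1659 CPM in hot 6 h leaves, against 663 to 935 CPM in hot 2 h leaves. A plastid 50S ribosomal protein (LOC_Os01g59060) had 64.1, 57.6, 64.4 and 57 CPM in hot 6 h leaves, against 19.3, 6.68, 14.5 and 16.1 CPM in hot 2 h leaves. The change was 2.21 ± 0.35 (adjusted p = 7.78e-06). Rises in this list were not particular to hot leaves. In warm leaves 6 of the 29 rose and none fell (median 0.555), and in cold leaves 8 rose and none fell (median 0.626). A RimM-type 16S rRNA processing protein (LOC_Os05g49130) was the largest of the 6 that rose among 39 ribosome biogenesis genes (3 without hot 6 h replicate 1), none of which fell (1 at an unadjusted p under 0.05, and 0 with voom weights), with 56.9, 49, 55.2 and 51.9 CPM in hot 6 h leaves, against 11.6, 5.43, 8.86 and 10.4 CPM in hot 2 h leaves and a change of 2.61 ± 0.45 (adjusted p = 3.2e-05). Of 126 cytosolic ribosomal proteins none was called in either direction by limma (1 rose at an unadjusted p under 0.05, none was called with voom weights, and 6 rose when only the groups compared were fitted), and their median of 0.088 lay between -0.14 and 0.18 over the other settings tried. In warm leaves, 4 of these 126 rose and the median was 0.47. Of the 39 ribosome biogenesis genes, 7 rose in warm leaves and 15 in cold leaves, and none fell. Their median was 0.247 in hot, 0.655 in warm and 0.748 in cold leaves. Among 70 splicing factors 3 rose (4.29%) and 5 fell (7.14%), both below the background of all genes, with a median of -0.08. The splicing factors U2AF (LOC_Os09g31482) and SF2 (LOC_Os01g21420), which pick splice sites, fell with changes of -1.72 ± 0.27 (adjusted p = 7.13e-06) and -1.61 ± 0.19 (adjusted p = 4.82e-08), while splicing factor 8 (LOC_Os05g07050), at the core of the spliceosome, rose by 0.81 ± 0.14 (adjusted p = 2.22e-05).

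**Figure D3:**
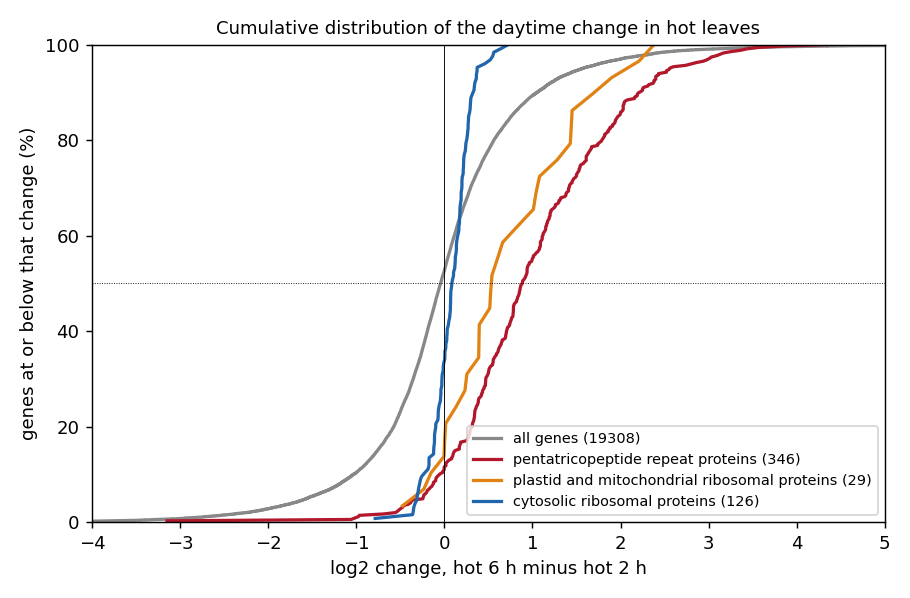
Cumulative share of genes (percent, vertical axis) at or below each log2 change of hot 6 h minus hot 2 h (horizontal axis), for all genes, pentatricopeptide repeat proteins, plastid and mitochondrial ribosomal proteins, and cytosolic ribosomal proteins (number in brackets). The pentatricopeptide curve crosses the dotted line at its median of 0.89, right of the curve of all genes, and the cytosolic ribosomal proteins rise steeply near 0.

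The HSP70, HSP90, HSP101 and small heat shock genes that passed were all lower at hot 6 h. Of 23 HSP70, HSP90 and HSP101 genes, 7 fell and none rose, with a median of -0.38 (1 was higher at an unadjusted p under 0.05, and 0 rose with voom weights). With the lane 3 libraries alone 2 fell, and without hot 6 h replicate 4 it was 4. Falls were not particular to hot leaves. In warm leaves 10 of the 23 fell and none rose, with a median of -0.53. In cold leaves 8 fell and none rose, with a median of -0.55. The DnaK-type HSP70 gene LOC_Os05g38530 had 8.63, 40.1, 5.26 and 6.91 CPM in hot 6 h leaves, against 26.9, 57.6, 43 and 30.9 CPM in hot 2 h leaves. The change was -1.84 ± 0.51 (adjusted p = 0.00621). HSP101 (LOC_Os05g44340, chromosome 5, 25803530 to 25807160, minus strand), the chaperone that pulls aggregated proteins apart, had 6.26, 20.9, 7.93 and 8.47 CPM in hot 6 h leaves, against 17.9, 18.4, 20.2 and 16.8 CPM in hot 2 h leaves. The change was -0.92 ± 0.3 (adjusted p = 0.0226). In both genes hot 6 h replicate 2 was high and overlapped the hot 2 h values, and the other hot 6 h libraries were lower. HSP101 no longer passed without hot 6 h replicate 1, 3 or 4 (adjusted p of 0.111, 0.0703 and 0.0623) or without hot 2 h replicate 3 (0.0564). Of 19 small heat shock proteins 2 fell and none rose (0 at an unadjusted p under 0.05, and 0 with voom weights). LOC_Os02g54140, one of them, had 0.282, 2.3, 0.519 and 1.27 CPM in hot 6 h leaves, against 7.58, 9.53, 9.42 and 4.14 CPM in hot 2 h leaves. The change was -3.17 ± 0.53 (adjusted p = 2.12e-05). Of the 19 small heat shock proteins, 3 fell and none rose in warm leaves, and 3 fell and 1 rose in cold leaves. BIP1 (LOC_Os02g02410), the HSP70 of the endoplasmic reticulum, had a change of -0.38 ± 0.29 (adjusted p = 0.369) and did not pass. Among 113 DnaJ co-chaperones and chaperonins 8 rose and 22 fell, and the rises were 5 without hot 6 h replicate 2 or 4.

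The same replicate stood apart among heat stress transcription factors, the activators and repressors of chaperone genes. The 20 measured genes summed to 333, 735, 352 and 379 CPM in hot 6 h leaves, against 410.4, 429.5, 397 and 352 CPM in hot 2 h leaves. HSFA2C (LOC_Os10g28340, chromosome 10, 14746825 to 14750175, minus strand) had 23.3, 79.8, 23.9 and 21.5 CPM in hot 6 h leaves, against 18.7, 18.3, 18 and 15.2 CPM in hot 2 h leaves, with replicate 2 far above the other hot 6 h libraries, and its change of 0.84 ± 0.41 (adjusted p = 0.136) did not pass. Without that library 8 of the 23 HSP70, HSP90 and HSP101 genes fell, and 2 of the 20 heat stress transcription factors rose and 2 fell, against 3 and 2 with it. What set replicate 2 apart, and its part in these results, was not tested. HSFC1B (LOC_Os01g53220, chromosome 1, 30582485 to 30583743, plus strand), a class C factor, had 24.4, 32.8, 24.8 and 35.7 CPM in hot 6 h leaves, against 0.61, 0.801, 0.28 and 0.204 CPM in hot 2 h leaves. The change was 6.15 ± 0.53 (adjusted p = 3.87e-11) or 4.45 on log2(CPM + 1). HSFC1A (LOC_Os01g43590), of the same class, fell, with a change of -3.35 ± 0.47 (adjusted p = 1.2e-06) and at most 3.83 CPM in any hot 2 h library. HSFB2B (LOC_Os08g43334), a class B factor, had 6.71, 8.36, 2.59 and 7.3 CPM in hot 6 h leaves, against 1.48, 0.445, 0.653 and 1.02 CPM in hot 2 h leaves. The change was 2.81 ± 0.84 (adjusted p = 0.0124). HSFC1A and HSFB2B did not overlap between the groups.

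Genes of abscisic acid, the hormone that closes stomata and answers water deficit, rose where they passed: 4 of 21 rose and none fell (2 at an unadjusted p under 0.05, and 0 with voom weights). SAPK9 (LOC_Os12g39630, chromosome 12, 24458153 to 24462001, minus strand), an SnRK2 kinase of the hormone's signalling path, had 62.6, 61.6, 102 and 80.1 CPM in hot 6 h leaves, against 4.27, 1.87, 2.89 and 3.87 CPM in hot 2 h leaves. The change was 4.61 ± 0.44 (adjusted p = 2.85e-10). PP2C08 (LOC_Os01g46760, chromosome 1, 26652944 to 26658313, plus strand), a phosphatase that holds such kinases back, had 31.4, 37.2, 34.3 and 31.1 CPM in hot 6 h leaves, against 9.5, 8.28, 5.31 and 4.14 CPM in hot 2 h leaves. The change was 2.37 ± 0.48 (adjusted p = 0.000244). PP2C50 (LOC_Os05g46040) had 47, 43.8, 43.4 and 31.1 CPM in hot 6 h leaves, against 14.6, 25.9, 18.6 and 17.5 CPM in hot 2 h leaves. PP2C30 (LOC_Os03g16170) had 42.5, 83.9, 28.7 and 42.2 CPM in hot 6 h leaves, against 13.3, 11.5, 8.49 and 9.04 CPM in hot 2 h leaves. All 4 were higher in every hot 6 h library than in any hot 2 h library, as were 16.8% of all genes. PP2C50 and PP2C30 changed by 1.13 ± 0.26 (adjusted p = 0.00119) and 2.13 ± 0.69 (adjusted p = 0.0212). PP2C30 did not pass without hot 2 h replicate 3 or hot 6 h replicate 2 (adjusted p of 0.0519 and 0.0789). The median of the list was 0.41 in hot leaves, -0.40 in warm leaves and -0.66 in cold leaves, and no member passed the test of the difference from warm (lowest adjusted p = 0.346, PP2C50 among them). The guard cell gene SLAC1 (LOC_Os04g48530), the anion channel that this path opens, changed by -0.83 ± 0.25 (adjusted p = 0.011) and did not pass without hot 2 h replicate 4 (adjusted p = 0.0572).

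Some lists of growth and secondary metabolism held a larger share of falls than the 14.2% of all genes. Of 73 auxin response and transport genes, 6 rose (8.22%) and 23 fell (31.5%). Without hot 6 h replicate 4 the falls were 15, and without hot 6 h replicate 2 the rises were 3. Among those that fell was the small auxin-up gene OsSAUR53 (LOC_Os09g37480), which had 0.169, 0.0919, 0.0741 and 0.0974 CPM in hot 6 h leaves, against 8.63, 7.39, 4.76 and 1.7 CPM in hot 2 h leaves. Every hot 6 h library of it lay under the floor. OsSAUR44 (LOC_Os09g37394) had no read in any hot 6 h library and was at least 5.69-fold lower there, counted at 3 reads per library. Of 73 phenylpropanoid and flavonoid enzymes, 7 rose and 18 fell (24.7%), with a median of -0.52, and a chalcone-flavonone isomerase (LOC_Os11g02440) changed by -3.32 ± 0.8 (adjusted p = 0.00188), with at most 6.86 CPM in any hot 2 h library, and did not pass with voom weights. Of 46 glutathione S-transferases, which attach glutathione to reactive compounds, 2 rose and 12 fell (26.1%), and LOC_Os10g38610 changed by -4.4 ± 0.61 (adjusted p = 8.55e-07). Falls in these lists were not particular to hot leaves. The auxin list had 16 falls and 6 rises in warm leaves, and 16 and 8 in cold leaves. Phenylpropanoid and flavonoid enzymes had 17 falls and 5 rises in warm leaves, and 22 and 4 in cold leaves. Glutathione S-transferases had 11 falls and 3 rises in warm leaves, and 14 and 3 in cold leaves. A chloroplast omega-3 fatty acid desaturase (LOC_Os03g18070), which adds double bonds to membrane lipids, had 12.2, 17.9, 21.7 and 13.7 CPM in hot 6 h leaves, against 115, 88.6, 88.3 and 46 CPM in hot 2 h leaves. The change was -2.33 ± 0.4 (adjusted p = 3.32e-05). Of 8 fatty acid desaturases it alone fell in hot leaves, 3 fell in warm leaves and 4 in cold leaves, and none rose. Of 67 proteasome subunits 2 rose and 10 fell (14.9%), a share at the background of all genes, and the number that fell was 0 to 29 over the other settings tried, with 4 without hot 2 h replicate 1 and 6 without hot 6 h replicate 3 or 4. Their median change was -0.27, and 15 of the 67 had a change above 0. In warm leaves 2 rose and 1 fell, with 49 of the 67 above 0. In cold leaves 1 rose and 0 fell, with 30 above 0. No proteasome gene passed the test of the difference from warm. Of 145 cytochrome P450 genes 15 rose (10.3%) and 26 fell (17.9%), close to the background. Of 18 jasmonate synthesis and JAZ repressor genes none passed by limma, and 2 were lower at an unadjusted p under 0.05.

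MYB and bZIP transcription factor genes had the larger shares of falls among 6 families of transcription factors. These 6 leave out the B-box and CCT domain regulators described above (36.1% fell). Of 119 MYB genes, LHY and LUX among them, 6 rose and 32 fell (26.9%), and of 38 bZIP genes 1 rose and 10 fell (26.3%), against 14.2% of all genes. In warm leaves 27 MYB genes fell and 8 rose, and 8 bZIP genes fell and 1 rose. In cold leaves 27 MYB genes fell and 10 rose, and 10 bZIP genes fell and 2 rose. The share that fell in hot leaves was below 14.2% in the rest of the 6 families: 7 of 62 bHLH genes (11.3%, with 1 rise), 8 of 81 AP2/ERF genes (9.88%, with 6 rises), 5 of 56 NAC genes (8.93%, with 2 rises) and 5 of 57 WRKY genes (8.77%, with 2 rises). Counts this small moved by over 1.5 times without single libraries: the AP2/ERF rises were 3 without hot 2 h replicate 3 or hot 6 h replicate 2 and the falls 5 without hot 6 h replicate 3, and the NAC falls were 3 without hot 6 h replicate 2. WRKY4 (LOC_Os03g55164) averaged 97.1 CPM in hot 6 h leaves and 16.7 CPM in hot 2 h leaves (geometric means). The change was 2.54 ± 0.33 (adjusted p = 1.88e-07). The MYB gene LOC_Os05g35500 rose with a change of 5.25 ± 0.85 (adjusted p = 1.21e-05), and the NAC-type gene LOC_Os08g10080 fell with a change of -2.83 ± 0.57 (adjusted p = 0.000258). Of 187 calcium sensors and kinases 20 rose (10.7%) and 47 fell (25.1%), and the rises were 13 without hot 6 h replicate 2. Of 322 F-box proteins 30 rose (9.32%) and 40 fell (12.4%), near the background of all genes. Of 726 transposon and retrotransposon annotations, 96 rose (13.2%) and 48 fell (6.61%). Dividing cell markers summed to 1098 to 1178 CPM in hot 6 h leaves, against 1224 to 1499 CPM in hot 2 h leaves, with 7 of 91 higher and 10 lower. The number lower was 5 without hot 2 h replicate 2 and 6 without hot 2 h replicate 1 or hot 6 h replicate 2. Vascular and secondary wall markers (6 genes) summed to 16.7 to 39.7 CPM in hot 6 h leaves, against 33 to 35.4 CPM in hot 2 h leaves, with none passing and 0 at an unadjusted p under 0.05. Guard cell markers (2 genes) summed to 11 to 14 CPM in hot 6 h leaves, against 15.1 to 31.5 CPM in hot 2 h leaves. The part of these cell types in the results was not tested.

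How far the hot leaves followed the ordinary course of the day was asked by setting their change beside that of warm leaves, which share no library with them. Of all 19308 genes, 75.7% had a change of the same sign in hot and warm leaves. Of the genes called in hot leaves, which were chosen by their hot values, it was 95.4%, and 2593 were called the same way in both, which is 53.8% of the calls in hot leaves and 68.7% of those in warm leaves. Only 7 were called in opposite directions. Across the 19308 genes the correlation of the hot and warm changes was 0.769, and across the 4821 called in hot leaves 0.912, as a description over genes that are not independent. The median size of change among those 4821 was 1.17 in hot leaves and 0.83 in warm leaves, a gap that includes the choice of genes by their hot values. Beside cold leaves, 76.5% of all genes and 96.0% of the calls in hot leaves had a change of the same sign, 3026 were called the same way (62.8% of the hot and 58.1% of the cold calls) and 11 the opposite way.

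**Figure D4:**
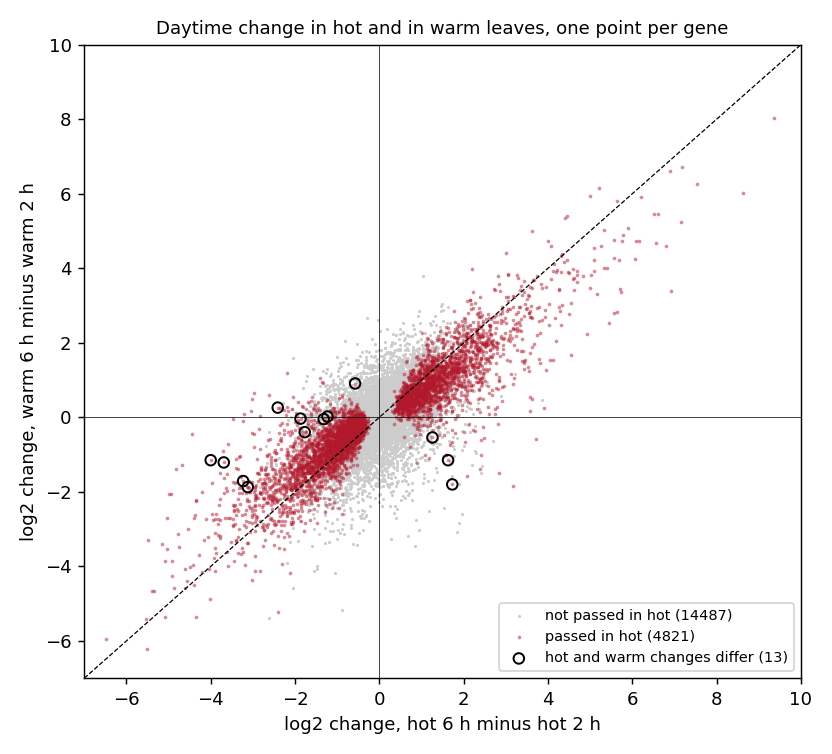
log2 change of each gene between 6 h and 2 h in hot leaves (horizontal axis) and in warm leaves (vertical axis), with genes called in hot leaves in red and the 13 genes whose changes differ circled. Most red points lie in the same quadrants as the dashed line of equal change, and the circled genes lie off it.

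The test of the difference itself (hot change minus warm change) called 13 genes (0.0673% of genes tested), 3 higher (0.0155%) and 10 lower (0.0518%), and 1405 at an unadjusted p under 0.05. PIL14 (LOC_Os07g05010, chromosome 7, 2207088 to 2210741, plus strand), a bHLH factor of the phytochrome-interacting type, had 18.4, 21.2, 19.1 and 18.6 CPM in hot 6 h leaves, against 41.2, 43.4, 54.7 and 55.1 CPM in hot 2 h leaves. It had 20.2, 21.6, 20.9 and 20.7 CPM in warm 6 h leaves, against 21.9, 17, 24.6 and 23.4 CPM in warm 2 h leaves. The hot 2 h libraries alone were high and the other groups overlapped, and the difference of changes was -1.27 ± 0.23 (adjusted p = 0.0163). OsIAA25 (LOC_Os08g01780, chromosome 8, 471199 to 473512, plus strand), an Aux/IAA repressor of auxin response, had 20, 16.1, 17.6 and 13.5 CPM in hot 6 h leaves, against 53.4, 58.3, 60.7 and 54.4 CPM in hot 2 h leaves. It had 42.7, 31.4, 32.9 and 38.6 CPM in warm 6 h leaves, against 41.8, 47.1, 48.5 and 53.8 CPM in warm 2 h leaves. The difference was -1.37 ± 0.22 (adjusted p = 0.00322). A gene annotated only as IF (LOC_Os01g18840, chromosome 1, 10643287 to 10644848, plus strand) had 2.76, 1.38, 2.3 and 1.85 CPM in hot 6 h leaves, against 7.58, 7.57, 6.25 and 7.95 CPM in hot 2 h leaves, with a change of -0.034 in warm leaves and a difference of -1.83 ± 0.29 (adjusted p = 0.00322).

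The other genes lower by this test fell in hot leaves, with smaller falls, values near 0 or a rise in warm leaves. An aluminum-activated malate transporter (LOC_Os01g12210, chromosome 1, 6659149 to 6662582, plus strand), of the anion channel family, had 10.7, 3.77, 2.15 and 4.97 CPM in hot 6 h leaves, against 85.7, 60.3, 65.4 and 82.6 CPM in hot 2 h leaves. It had 56.2, 18.8, 30.6 and 76.9 CPM in warm 6 h leaves, against 78.1, 118, 76.9 and 86.1 CPM in warm 2 h leaves. The difference was -2.84 ± 0.59 (adjusted p = 0.0465). An lrgB-like protein (LOC_Os10g42780) had a change of -2.41 in hot leaves and 0.26 in warm leaves, an uncharacterized membrane protein (LOC_Os04g48390) changes of -3.69 and -1.21, and a GTP cyclohydrolase I (LOC_Os04g56710) changes of -3.23 and -1.71. The sucrose-phosphate synthase described above (LOC_Os01g69030) had changes of -3.12 and -1.87, and a kelch repeat protein (LOC_Os08g13360) had changes of -1.23 and 0.021. A cytochrome P450 86A1 (LOC_Os06g03930) fell in hot leaves and rose in warm leaves, with changes of -0.57 and 0.91, and its fall in hot leaves did not pass without hot 2 h replicate 2, 3 or 4 or hot 6 h replicate 1, 3 or 4 (adjusted p up to 0.184).

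Among the genes higher by this test, each rose in hot leaves with a negative change in warm leaves. A multidrug resistance-associated protein (LOC_Os01g67580, chromosome 1, 39275857 to 39282884, minus strand), an ABC transporter, had 20.6, 33.7, 6.45 and 27.4 CPM in hot 6 h leaves, against 8.98, 3.83, 3.08 and 9.44 CPM in hot 2 h leaves. It had 1.94, 1.28, 1.63 and 0.635 CPM in warm 6 h leaves, against 6.48, 4.51, 2.54 and 5.13 CPM in warm 2 h leaves. The difference was 3.54 ± 0.63 (adjusted p = 0.0155). The nitrite reductase LOC_Os02g52730 had 12.7, 16.4, 25.1 and 8.64 CPM in warm 6 h leaves, against 50.1, 22.9, 20.1 and 47.6 CPM in warm 2 h leaves, a difference of 2.78 ± 0.58 (adjusted p = 0.0491), and NIR came close, with a difference of 2.6 ± 0.57 (adjusted p = 0.0632) that did not pass. A cadmium/zinc-transporting ATPase (LOC_Os06g47550) had a change of 1.26 in hot leaves and -0.54 in warm leaves. The call of LOC_Os01g18840 and that of OsIAA25 held without any 1 of the 16 hot and warm libraries. PIL14 did not pass without hot 2 h replicate 3 or 4 or warm 2 h replicate 2, the multidrug resistance-associated protein did not without hot 2 h replicate 3 or hot 6 h replicate 2, and each of the other 9 was lost without 10 to 14 of the libraries. The count of 13 itself was between 2, without hot 2 h replicate 3, and 16, without hot 6 h replicate 1.

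**Figure D5:**
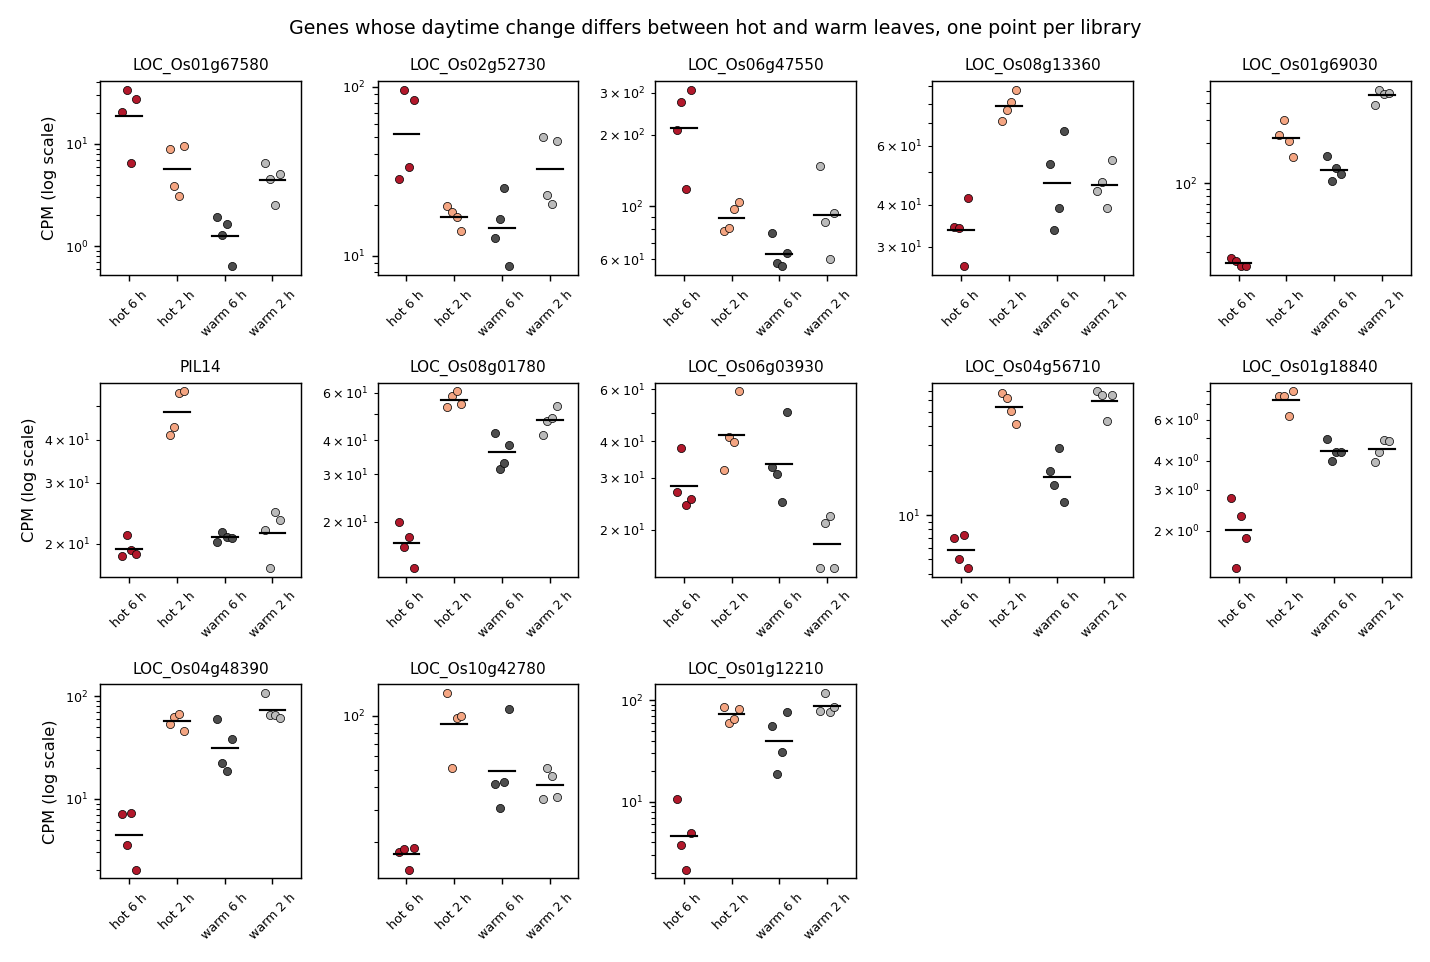
CPM (log scale) of the 13 genes whose daytime change differs between hot and warm leaves, in each library of hot 6 h, hot 2 h, warm 6 h and warm 2 h leaves, ordered by the difference of changes, with bars at the geometric means. PIL14, LOC_Os01g18840 and LOC_Os08g13360 are highest at hot 2 h and about level between warm 6 h and warm 2 h.

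The same test against cold leaves called 37 genes (0.192% of genes tested), 14 higher (0.0725%) and 23 lower (0.119%), and 1687 at an unadjusted p under 0.05. It shares the hot libraries with the test against warm, so its values are set beside those and not counted as further evidence. For LOC_Os01g18840 the differences were -1.83 from warm and -1.88 from cold, for OsIAA25 -1.37 and -1.42, for PIL14 -1.27 and -1.2, and for the nitrite reductase LOC_Os02g52730 2.78 and 2.96. A trehalose-6-phosphate synthase (LOC_Os05g44210), of the enzymes that make a sugar signal, had 60.4, 37, 69.2 and 52.5 CPM in hot 6 h leaves, against 28.9, 25.2, 24.3 and 15.7 CPM in hot 2 h leaves. It had a change of 1.22 ± 0.34 (adjusted p = 0.00803) in hot leaves and -1.11 in cold leaves, a difference of 2.32 ± 0.49 (adjusted p = 0.0312) that was lost without 10 of the 16 hot and cold libraries. NIR differed from cold by 2.63 ± 0.57 (adjusted p = 0.04), and this call too was lost without 11 of the 16.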

How the data were processed

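Stranded total RNA from leaves was depleted of ribosomal RNA and sequenced for 61 cycles, per the labels' protocols. The submitters' processing notes name Subread 1.5.0-p1, featureCounts 1.5.0-p1, edgeR 3.4.2, limma 3.20.1 and build IRGSP-1.0. Neither the labels nor the notes used here state the strand setting, a low-count filter or how libraries were scaled. The values are log2 CPM made by voom and deposited by the authors as 1 table of 19308 genes in 40 libraries. Each library's values gave back whole reads within 0.001 read for 100.0% of genes, used for depth and for an alternative with voom weights. The main test fitted 10 group means over 40 libraries to the deposited values in limma 3.58.1 (R 4.3.3), with moderated variance following mean expression and robust to outlying genes. It was two-sided, with Benjamini-Hochberg adjustment over all genes and a threshold of 0.05. The difference between temperatures was a contrast of 2 changes in that fit. The fit was also run on simulated counts that held no lane or tank effects, and no result above rests on that run.

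Members and gene lists were chosen with earlier results of these data known. Lists came from product names in the table or from loci matched by hand to symbols (91 of 96 found). The named genes were the 6 largest changes each way (adjusted p under 0.05, groups not overlapping, an informative product name and a mean log2 CPM of 2 or more), the 2 largest passing per list, the 3 largest each way in the difference from warm, the clock list, HSP101, HSFA2C, BIP1 and RCA. Not every list member this rule gave is described, and most of those whose call was lost without 1 library were passed over. Also named, after their values were seen, were NIR, PHYB, PHYC, PP2C30, PP2C50, HSFB2B, PIL14, OsIAA25 and the loci LOC_Os01g18840, LOC_Os04g56710, LOC_Os06g03930, LOC_Os08g13360, LOC_Os07g22930, LOC_Os01g22900, LOC_Os06g26234, LOC_Os05g44210, LOC_Os10g41780, LOC_Os02g47020, LOC_Os09g36930, LOC_Os02g44630, LOC_Os09g06464, LOC_Os01g51410, LOC_Os03g08580, LOC_Os05g07050 and the 3 PPR genes that fell. Coordinates are those of the deposited table.

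Alternatives were lane as a term, lane 3 only, other scalings, CPM + 1, a filter on low values, voom weights, a fit of only the groups compared, the replicate number as a block, and each library left out.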

Additional observations from a re-analysis of the deposited data

Results flagged for a closer look

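Single libraries stood far from the other 3 of their group, by Dixon's criterion for 4 values, in 11 of 190 gene-by-group sets examined, where chance flags about 1 in 20. HSFA2C (LOC_Os10g28340), a heat stress transcription factor, had 79.8 CPM in hot 6 h replicate 2, against 21.5 to 23.9 CPM in the other hot 6 h libraries. Splicing factor U2AF (LOC_Os09g31482) had 41.1 CPM in hot 6 h replicate 3, and the lrgB-like gene LOC_Os10g42780 had 14 CPM there. In hot 2 h leaves, replicate 4 had 131 CPM of the translocator LOC_Os05g07870, 106 CPM of SF2 (LOC_Os01g21420), 13.4 CPM of the beta-amylase LOC_Os03g22790 and 0.0679 CPM of LOC_Os03g08580. Replicate 1 of hot 2 h leaves had 64.6 CPM of PHYB (LOC_Os03g19590) and 81 CPM of LOC_Os09g06464, replicate 2 had 132 CPM of PIL13 (LOC_Os03g56950), and replicate 3 had 0.0932 CPM of LUX (LOC_Os01g74020), a value of no reads.

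The 6 h minus 2 h change differed between hot and warm leaves, by the test of the difference, for 13 genes. The differences were 3.54 for LOC_Os01g67580, 2.78 for LOC_Os02g52730, 1.8 for LOC_Os06g47550, -1.25 for LOC_Os08g13360, -1.26 for LOC_Os01g69030, -1.27 for PIL14 (LOC_Os07g05010), -1.37 for LOC_Os08g01780, -1.48 for LOC_Os06g03930, -1.52 for LOC_Os04g56710, -1.83 for LOC_Os01g18840, -2.48 for LOC_Os04g48390, -2.67 for LOC_Os10g42780 and -2.84 for LOC_Os01g12210.

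Against cold leaves, among the genes described, the change differed by 2.96 for LOC_Os02g52730, 2.63 for NIR (LOC_Os01g25484), 2.32 for LOC_Os05g44210, 1.47 for LOC_Os03g63910, -1.2 for PIL14, -1.22 for LOC_Os08g13360, -1.38 for LOC_Os01g69030, -1.42 for LOC_Os08g01780, -1.45 for LHY (LOC_Os08g06110), -1.48 for LOC_Os06g03930, -1.57 for LOC_Os04g56710, -1.73 for LOC_Os05g07870, -1.88 for LOC_Os01g18840 and -2.64 for LOC_Os01g12210. The call of LOC_Os03g08580 came with a difference of 4.07, which is no measure of size because its hot 2 h libraries lie under the floor. It was 1.76 on log2(CPM + 1), and the call was lost without 13 of the 16 hot and cold libraries. That of LOC_Os03g63910 was lost without 14 of the 16, and that of LOC_Os01g12210 without 12. These differences share the hot libraries with the comparison to warm.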

How the results depend on the processing

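No gene called at hot 6 h against hot 2 h reversed direction in the 20 alternatives run, which reuse the libraries that gave the calls. Of the 90 described genes that passed, 71 passed in every one. Most list members whose call was lost without 1 library had been passed over, so the described genes were partly chosen for holding up. Of all 134 named genes that passed, described or not, 93 passed in every alternative. The count of 4821 was 2181 with lane 3 only and otherwise 3650 to 6731. Leaving out 1 library gave 3935 to 4414. With the replicate block it was 4833, or 3650 with lane as well. Same-numbered hot libraries did not deviate together (correlations of -0.004, -0.067, -0.013 and 0.113), so the numbers were not taken as pairs. With only the groups compared, 3256 genes were higher. The difference from warm (13 genes) became 7 with the replicate block, 0 with the block and lane, 5 with lane as a term, 5 with libraries shifted to one median (2 higher and 3 lower), 4 without trend and robust estimation, 22 after quantile normalization and 41 with only the groups compared, and 2 to 16 without 1 library. The difference from cold (37 genes) became 56 on log2(CPM + 1), 19 without trend and robust estimation, 67 after quantile normalization, 291 in the fit of only hot and cold groups, and 100 without 2 warm libraries that stand apart, an alternative chosen after seeing the data, and 9 to 40 without 1 library. With the block and lane together HSFB2B, ELF3-1, PP2C30, LOC_Os02g47020 and LOC_Os06g03930 no longer passed at hot 6 h against hot 2 h, and LOC_Os06g03930 did not with the block alone. The causes were not tested. Of 48 list medians, 16 changed sign in some alternative. Changes of genes near the 3-read floor depend on the offset.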
